A study of Sus scrofa with 6 samples.

Results

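The 3 growth-related miRNAs ssc-miR-21, ssc-miR-26a and ssc-miR-101 (miR-21, miR-26a and miR-101 from here on) were followed in the newborn pig liver across all 6 miRNA arrays of the series. They were chosen by name for their known roles in liver growth and regeneration, and each matched 1 row, so that 3 of 236 rows carrying a pig miRNA name were described. Liver RNA came from purebred male newborn piglets of Large White (LW), the control breed, and Erhualian (EHL), which received no treatment named in the labels. Each array held a pool of 2 littermates, with 3 pools and 6 piglets per breed. The piglets came from 2 neighbouring farms, and which farm held which breed is not given in the sources used here, so breed and farm cannot be told apart here.

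After part of the liver is lost, the remaining hepatocytes re-enter the cell cycle, and the newborn liver likewise still grows by cell division. In this setting miR-21 is known as a miRNA that favours division. In contrast, miR-26a restrains the cell cycle through cyclins, and miR-101 represses the histone methyltransferase EZH2, and both are often low in liver tumours.

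The genes of the 3 miRNAs lie apart from one another in the pig gene table (Sscrofa11.1). No gene of the table held the whole of MIR21, and PTRH2 and TUBD1 were the nearest coding genes wholly to either side. A gene that overlaps only part of MIR21 was not looked for. MIR26A lies within CTDSP2. The mature miR-101 can come from either of 2 genes, MIR101-1 within RCL1 and MIR101-2 within JAK1, which 1 probe cannot tell apart.

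The arrays gave a background-subtracted, normalized fluorescence signal on a linear scale, and cells without a value were blank. The study ties undetected miRNAs to low fluorescence, and the cutoff is not given in the sources used here. Over the 96 named miRNAs listed on every array, the median log2 signal was 7.77, 7.54 and 7.71 on LW arrays 1 to 3 and 7.70, 7.73 and 7.71 on EHL arrays 1 to 3. Thus the arrays lay close together in their middle, and signals were taken to log2 without further scaling. Because a pool is a bulk sample, fewer cells of a type and less RNA per cell cannot be told apart.

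None of the 3 miRNAs passed the FDR of 15% between the breeds. In EHL the log2 ratio (EHL/LW) was -0.84 for miR-21, -0.05 for miR-26a and 0.06 for miR-101, each with an interval that held 0. By limma, 0 of the 3 were called among 109 tested miRNAs, of which 0.917% were called higher in EHL (1, miR-184) and 0% lower. Before adjustment, 11.9% of those tested had a limma p under 0.05 (8 higher and 5 lower in EHL), and again 0 of the 3. SAM, recomputed here and not run with the study's software, called 0 of the 3 and 0.917% of all, with 1 higher and 0 lower. With other values of the constant s0 in its denominator, tried after that count had been seen, SAM called 1, 4 or 8 higher and 0 lower, and 0 of the 3 at each. The values of the breeds overlapped for all 3, whereas 18.3% of the tested miRNAs showed no overlap. These limma counts depended on single arrays: 13 miRNAs were called higher and 6 lower without EHL array 1, 0 were called higher without LW array 3, EHL array 2 or EHL array 3, and 1 was called lower without LW array 1.

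The signal of miR-21, which favours hepatocyte division, varied widely within both breeds. It was 37, 347 and 249 on LW arrays 1 to 3, and 236, 107 and 22 on EHL arrays 1 to 3. Each breed thus held 1 array with a low signal, LW array 1 and EHL array 3, and the breeds overlapped over most of their range. With 3 arrays per breed, the LW mean was 211 ± 158 (SD) and the EHL mean 122 ± 108, or 7.20 and 6.36 as means of log2 signal. The log2 ratio of -0.84 had a standard error of 0.97 and a 95% interval of -3.03 to 1.34 (limma, adjusted p = 0.807). As a fold, EHL stood at 0.558 of LW, with an interval of 0.123 to 2.54; the difference was smaller than the spread between arrays of a breed. An exact two-sided permutation test gave p = 0.5, whose smallest value with these arrays is 0.1, and the SAM q-value was 77.5%. The direction rested on EHL array 3, without which the log2 ratio was 0.11, while without LW array 1 it was -1.84 and still not called.

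**Figure D1:**
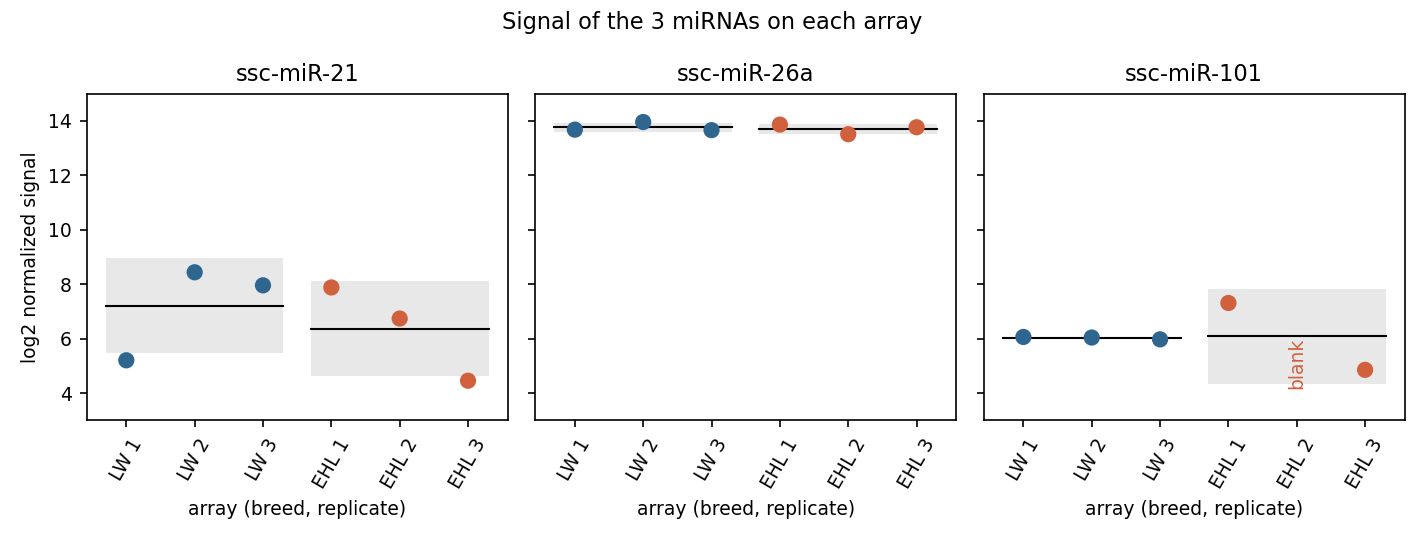
Log2 normalized signal (vertical axis) of miR-21, miR-26a and miR-101 on LW arrays 1 to 3 (blue) and EHL arrays 1 to 3 (orange). Points are arrays, lines are breed means and grey bands are 1 SD on each side; miR-21 spans 22 to 347 in linear signal, miR-26a stays between 11632 and 15850, and miR-101 is blank on EHL array 2.

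In contrast, the signal of miR-26a, which restrains the cell cycle, was nearly level over the 6 arrays. It was 13067, 15850 and 12898 on LW arrays 1 to 3, and 14851, 11632 and 13891 on EHL arrays 1 to 3. The highest array was of LW and the lowest of EHL, and between them the other LW arrays lay below the other EHL arrays, so that the breeds overlapped. The LW mean was 13938 ± 1658 (SD over 3 arrays) and the EHL mean 13458 ± 1653, with coefficients of variation of 11.9% and 12.3%. On the log2 scale the means were 13.76 and 13.71. The log2 ratio was -0.05 (standard error 0.25), with a 95% interval of -0.61 to 0.51 and an adjusted p of 0.974 by limma. The fold of 0.965 had an interval of 0.655 to 1.42, which leaves room for a moderate difference in either direction. The exact two-sided permutation test gave p = 0.8, and the SAM q-value was 100%. Its sign was not settled by the arrays, since the log2 ratio was 0.04 without LW array 2 and 0.05 without EHL array 2.

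For miR-101, which represses EZH2, the LW arrays were almost identical and the EHL arrays were not. The signal was 67, 66 and 63 on LW arrays 1 to 3, and in EHL it was 159 on array 1, blank on array 2 and 29 on array 3. EHL array 1 therefore lay above every LW array and EHL array 3 below every one. On EHL array 2 the lowest listed signal of a named miRNA was 16, and of the 13 tested miRNAs with a blank, 12 were blank on this array. The mean signal was 65.3 ± 2.08 in LW (SD, n = 3 arrays) and 94.0 ± 91.9 in EHL (n = 2 arrays), and the mean log2 signal was 6.03 and 6.09. The fit left out the blank, and the log2 ratio was 0.06 (standard error 0.62), with a 95% interval of -1.36 to 1.48, a fold of 1.04 (0.388 to 2.78) and an adjusted p of 0.974 by limma. With 3 arrays against 2, the exact two-sided permutation test gave p = 0.8, with 0.1 as its smallest value, and the SAM q-value was 77.5%.

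The breed ratio of miR-101 hung on which EHL array was kept. Without EHL array 1 the log2 ratio was -1.17 and miR-101 was called lower (limma, adjusted p = 0.0737), a value that rests on EHL array 3 alone, which is then assumed to vary like the other arrays. Without EHL array 3 it was 1.28 and not called (limma, adjusted p = 0.181), which likewise rests on EHL array 1 alone under the same assumption. Over all alternatives of miR-101 the adjusted p ran from 0.0737 to 1. With the blank set to the lowest signal of its array, the log2 ratio was -0.64. With arrays weighted by how closely they followed their breed means, it was -0.03. The log2 of the ratio of mean linear signals was 0.52.

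The markers of red blood cells were also highest on EHL array 1. Of the 3 erythroid names fixed, 2 had a row, and their summed signal was 249, 124 and 159 on LW arrays 1 to 3 and 410, 78 and 85 on EHL arrays 1 to 3. Of these, miR-451 stood at 220, 100 and 134 in LW and at 376, 54 and 63 in EHL, while miR-486 stayed between 22 and 34. On EHL array 1 the hepatocyte miRNAs miR-148a and miR-192 and the endothelial miR-126 also had their highest signals, at 2256, 5592 and 4524. The other tested markers of hepatocytes, stellate cells and smooth muscle were highest on other arrays, miR-122 on LW array 1 at 28071. When arrays were weighted by how closely they followed their breed means, EHL array 1 had the lowest weight, 0.60. These weights come from the same signals and do not measure the quality of RNA or hybridization. The part of red blood cells or of other cell types in the signal of miR-101 was not tested.

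**Figure D2:**
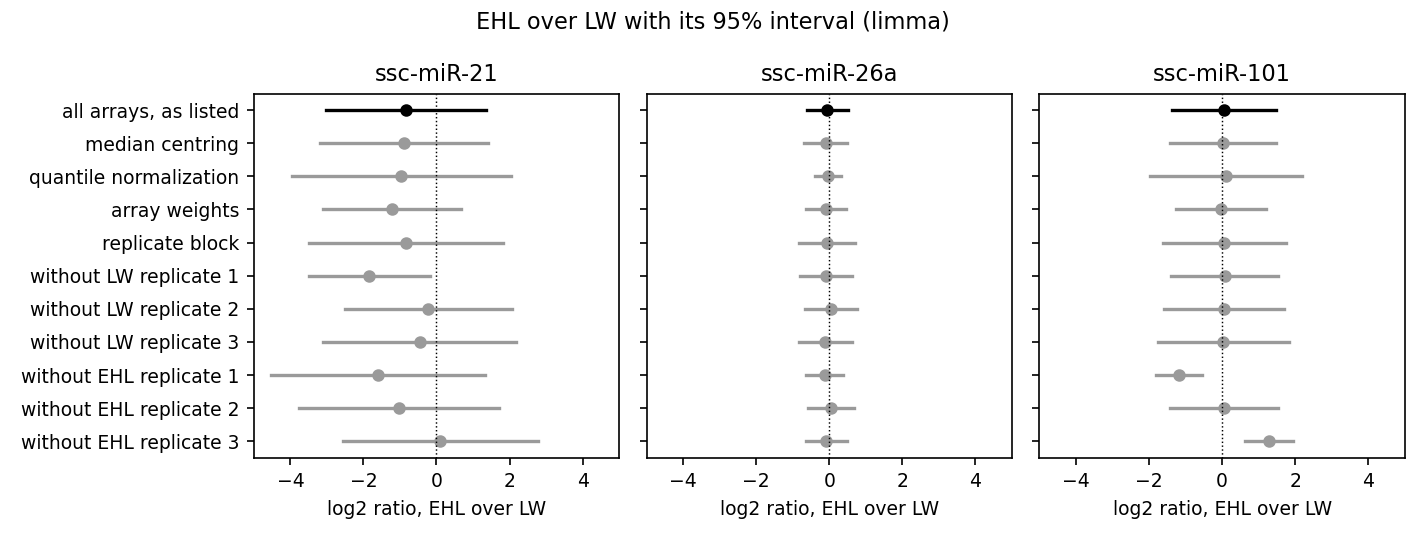
Log2 ratio (EHL/LW, horizontal axis) of the 3 miRNAs with all arrays (black) and under 10 alternatives (grey), with limma's 95% intervals as bars. The dotted line marks equal signal; miR-26a stays within -0.13 and 0.05, whereas miR-101 moves from -1.17 to 1.28 when EHL array 1 or EHL array 3 is left out.

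Within an array, a ratio of 2 miRNAs cancels a scale factor common to that array, so the breeds were also compared on such ratios. It does not cancel a correction that varies with signal, such as the LOWESS normalization by the authors. The log2 ratio of miR-26a to miR-21 was 0.79 higher in EHL than in LW, and that of miR-101 to miR-21 was 1.09 higher. Neither difference passed (exact two-sided permutation test, p = 0.5 and adjusted p = 0.75 over 3 pairs for both). The ratio of miR-101 to miR-26a differed by 0.0063 between the breeds (exact permutation p = 1, adjusted p = 1). Pairs with miR-101 used 2 EHL arrays. Since p cannot go below 0.1 here, a single pair could not have passed the FDR after adjustment, and these values do not show that the miRNAs changed alike. The first of these differences was -0.19 without EHL array 3, that of miR-101 to miR-21 ran from 0.48 without LW array 2 to 2.10 without LW array 1, and the last was -0.08 without LW array 2 and -1.17 without EHL array 1.

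The 3 miRNAs differed in how much the pools of a breed varied. For miR-21 the SD of log2 signal was 1.74 in LW and 1.74 in EHL, and the highest array exceeded the lowest by 9.38-fold in LW and 10.7-fold in EHL. This was the widest spread of the 109 tested miRNAs in each breed, where the median SD was 0.272 in LW and 0.366 in EHL. In each breed the spread rested on 1 low array: the SD was 0.34 in LW without array 1, rank 20 of 108, and 0.81 in EHL without array 3, rank 10 of 97. Pooled over both breeds, the SD of miR-21 ranked 1 of 109 with all arrays, with each array left out in turn, after median centring, after quantile normalization and with 32 added to each signal. Of 27 tested miRNAs within 1 log2 unit of miR-21 in mean signal, all 27 had a smaller SD within a breed, with a median of 0.484 and miR-215 the widest at 1.32. These spreads are a description, chosen after that of miR-21 had been seen, and carry no test.

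In contrast, miR-26a had an SD of log2 signal of 0.17 in LW and 0.18 in EHL, ranks 86 and 95 of 109. These SDs also moved with single arrays, to 0.013 in LW without array 2 and to 0.068 in EHL without array 2. Without LW array 1 the LW SD was 0.21, rank 50 of 108. With the breeds pooled miR-26a ranked 102, and between 80 and 108 under the pooled alternatives given for miR-21. The spread of miR-101 differed between the breeds in these arrays, at 0.046 in LW, rank 107 of 109, and 1.74 over the 2 EHL arrays, rank 2. With every miRNA taken over those 2 EHL arrays, miR-101 ranked 5 of 109. In LW the SD of miR-101 was 0.015 without array 3, and it ranked 82 of 108 without array 1. Pooled over the breeds its SD ranked 6, and without EHL array 1 or EHL array 3 it was 0.046, rank 108, since 1 EHL array then gives no spread. With 3 and 2 arrays, that difference in spread was not tested.

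**Figure D3:**
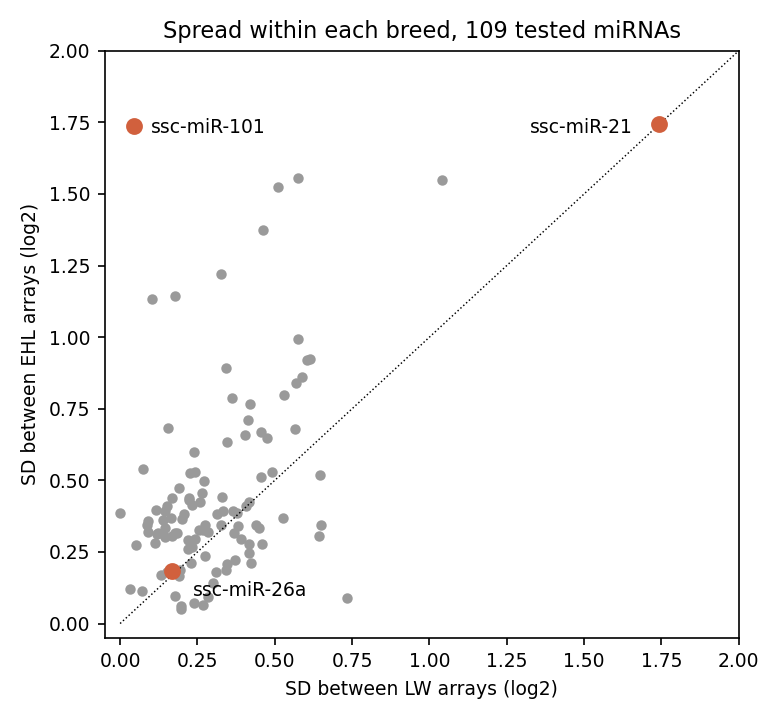
SD of log2 signal between arrays of EHL (vertical axis) against that of LW (horizontal axis) for 109 tested miRNAs, with the 3 growth-related miRNAs in orange and equal spread as a dotted line. The point of miR-21 lies at 1.74 on both axes, miR-26a lies near the origin, and miR-101 lies at 0.046 in LW and 1.74 in EHL.

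The miRNAs with the most similar profile over the arrays were named by the root-mean-square difference of log2 signals, each centred on its own mean. For miR-21 they were miR-215 (0.595), let-7f (0.891) and miR-424 (0.936), where the median over 95 miRNAs was 1.57. Like miR-21, each of these was lowest in LW on array 1 and lowest in EHL on array 3. On those arrays miR-215 was at 123 and 37, let-7f at 374 and 139, and miR-424 at 45 and 28. The rows let-7a, let-7c, let-7e, let-7g and let-7i were also lowest on LW array 1 and EHL array 3 within their breeds. For miR-26a they were miR-192 (0.119), a hepatocyte miRNA, miR-30c (0.148) and miR-23b (0.162), with a median of 0.400. A level miRNA lies close to any other level miRNA by this measure. For miR-101, over its 5 listed arrays, they were miR-345-3p (0.287), miR-451 (0.357) and miR-424 (0.380), with a median of 0.892 over 96 miRNAs. All of these had their highest signal on EHL array 1, and miR-451 is the red cell marker described above. Within LW, however, miR-451 ranged from 100 to 220, whereas miR-101 stayed between 63 and 67.

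**Figure D4:**
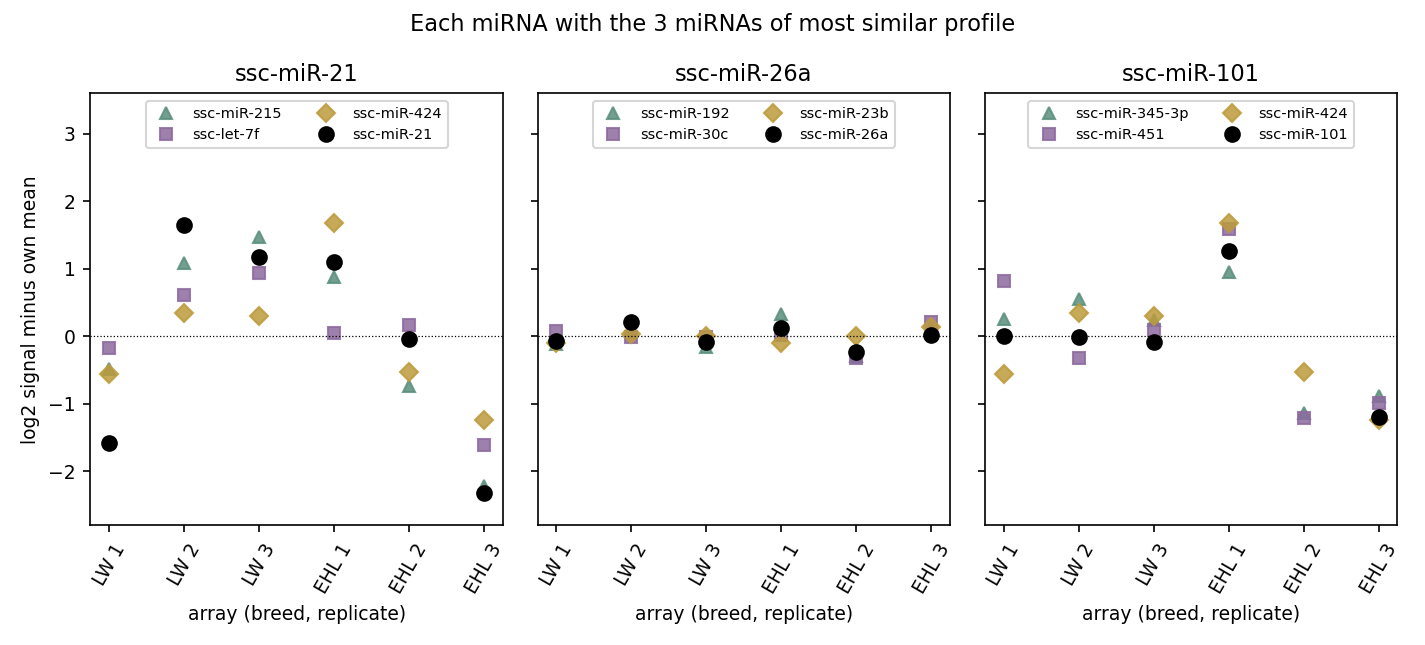
Log2 signal minus the miRNA's own mean (vertical axis) on each array for miR-21, miR-26a and miR-101 (black circles) and the 3 miRNAs closest to each (coloured marks). The profile of miR-21 is lowest on EHL array 3 and that of miR-101 is highest on EHL array 1, while that of miR-26a stays near 0.

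By limma with all arrays, the other miRNAs of the growth lists gave no call either. Of 13 names known to favour cell division, miR-21 among them, 10 were found, in 11 rows of which 2 were blank throughout, and of 9 rows tested 0 were called by limma or by SAM. Their log2 ratio was above 0 for 2 and below 0 for 7, with a median of -0.17, beside 56 above and 53 below and a median of 0.0247 over all tested miRNAs. Before adjustment 1 of the 9 had a limma p under 0.05, beside 11.9% of all tested miRNAs, and 1 showed no overlap, beside 18.3%. Both counts were of miR-221, which represses an inhibitor of cyclin-dependent kinases. Its signal was 547, 320 and 387 in LW and 203, 217 and 298 in EHL, without overlap (log2 ratio -0.79, standard error 0.30, adjusted p = 0.291 by limma).

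Of 27 names known to restrain division or to mark hepatocyte maturation, miR-26a and miR-101 among them, 24 had a row, of which 3 were blank throughout, and of 18 tested 0 were called by limma or by SAM with the s0 used. The log2 ratio was above 0 for 7 and below 0 for 11, with a median of -0.04. Before adjustment 1 of the 18 had a limma p under 0.05, beside 11.9% of all tested miRNAs, and 2 showed no overlap, beside 18.3%. The first was miR-378, at 36, 27 and 28 in LW and 41, 84 and 66 in EHL. It did not pass the FDR by limma (log2 ratio 1.02, standard error 0.32, adjusted p = 0.244), and its SAM q-value was 16.5%. With s0 at the 5% quantile or any higher one tried, SAM called miR-378 and 0 other miRNAs of both growth lists. The breeds also did not overlap for miR-15b, which represses cyclins, at 155, 144 and 183 in LW and 128, 116 and 113 in EHL (log2 ratio -0.43, standard error 0.24, adjusted p = 0.518 by limma). The let-7 miRNA closest to miR-21 in profile, let-7f, had a log2 ratio of -0.92 (standard error 0.49) and overlapped between the breeds.

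**Figure D5:**
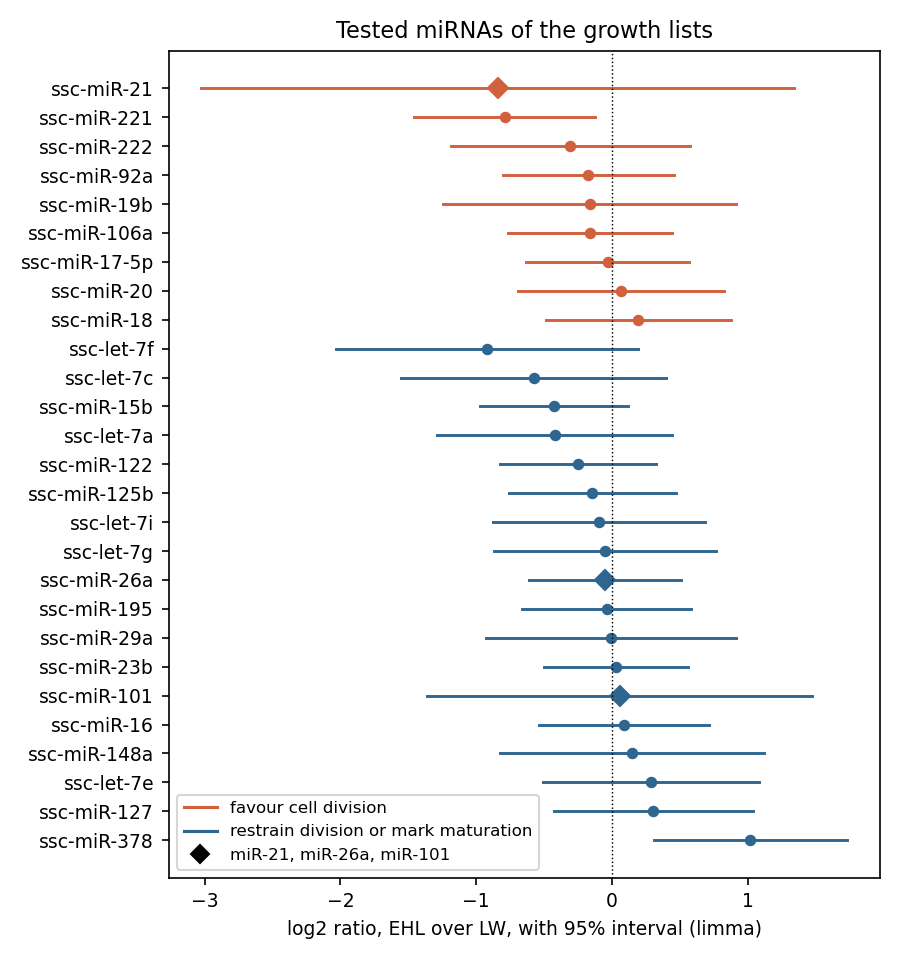
Log2 ratio (EHL/LW, horizontal axis) of the tested miRNAs known to favour cell division (orange) and to restrain it or mark hepatocyte maturation (blue), with limma's 95% intervals as bars and the 3 growth-related miRNAs as diamonds. The interval of miR-21 is the widest of those drawn, that of miR-26a is centred near 0, and those of miR-221 and miR-378 do not hold 0.

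Markers of the cell types of the liver were read beside the 3 miRNAs. The hepatocyte marker miR-122 had a signal of 28071, 18958 and 23800 in LW and 20649, 20007 and 18287 in EHL, so the tissue showed its defining miRNA on every array. Of the hepatocyte list 5 rows were tested, 3 above and 2 below 0 in log2 ratio and 0 called. The breeds did not overlap for 2 of them, beside 18.3% of all tested miRNAs: miR-885-3p, higher in EHL, and miR-885-5p, which was at 46, 43 and 69 in LW and 40, 30 and 26 in EHL (log2 ratio -0.71, standard error 0.29, adjusted p = 0.335 by limma). Before adjustment, 1 of the 5, miR-885-5p, had a limma p under 0.05, beside 11.9% of all. The endothelial miR-126 ranged from 2209 to 4524 (log2 ratio 0.22, not called), the stellate and fibroblast list gave 3 tested rows and 0 calls with a median log2 ratio of -0.02, and the smooth muscle list gave 2 tested rows and 0 calls with a median of 0.34, the breeds not overlapping for 1, miR-143-3p, higher in EHL, beside 18.3% of all. The star rows of miR-199a and miR-199b, which the stellate and fibroblast list does not take, had log2 ratios of -0.20 and -0.58, the latter without overlap and not called. Of the leukocyte list, 2 of 4 rows had a value, both of 12 and on EHL array 3, and of the skeletal and heart muscle list 7 of 8 rows were blank on every array, with miR-133a-3p between 14 and 17 on 3 arrays. Of the low arrays of miR-21, LW array 1 had the highest miR-122 and EHL array 3 the lowest. The other tested hepatocyte rows did not all follow miR-122. On LW array 1 and EHL array 3, in that order, miR-885-5p was at 46 and 26. In contrast, miR-192 was at 4106 and 4832, miR-148a at 824 and 1018, and miR-885-3p at 28 and 32.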

How the data were processed

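Liver RNA was hybridized by the authors to LC Sciences single-colour (Cy5) pig arrays with miRBase release 16 probes, 1 array per pool. The deposited values were linear intensities after background subtraction and LOWESS normalization by the authors; miRNAs counted as undetected are tied by the study to low fluorescence, with no cutoff given in the sources used here. The number of arrays limits the precision.

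On log2 signals, limma 3.58.1 (R 4.3.3) was fitted with breed alone to the 109 named rows listed on 2 or more arrays per breed. Of 100 rows with an LRS label, the 53 listed as often were tested only as an alternative. P-values were adjusted by Benjamini-Hochberg and miRNAs called at an adjusted p under 0.15, the FDR of the study's methods for arrays. SAM was recomputed with 20 relabellings and is not the authors' software. Its q-value was first computed with a symmetric cut on the statistic; after that count and earlier SAM counts from these data had been seen, the cut points were rewritten, and 9 values of its constant s0 were then tried. The rule for s0 written at the start (least variable statistic) was kept, and all versions are given among the alternatives. Single values were compared by exact permutation tests. Limma and SAM were tested on simulated data. Figures used Python 3.11.15, pandas 2.3.3, numpy 2.4.6 and matplotlib 3.10.9.

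The miRNAs named were the 3 members, their other arms, miRNAs sharing bases 2 to 8, the 3 closest in profile among those listed on all 6 arrays, and lists of growth-related, hepatocyte, erythroid, leukocyte, endothelial, stellate and fibroblast, smooth muscle, and skeletal and heart muscle miRNAs. No row was named as another arm of a member, and bases 2 to 8 were not compared because mature sequences were not used here. For miR-101 the likeness was taken over its 5 listed arrays, a choice made after its blank had been seen. The miRNA miR-184 is named as the only call, after its value was seen. The members and lists were chosen with earlier results of these data known. Other assays of the study were not analysed here.

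Alternatives covered normalization, filters, an offset of 32, blanks, LRS rows, the variance model, array weights, a replicate block, a threshold of 0.05, linear averaging and each array left out; those for the spread, pooled and in each breed, and for SAM were chosen later, with the data already seen.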

Additional observations from a re-analysis of the deposited data

How the results depend on the processing

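No member passed the FDR of 15% under any alternative, except miR-101 without EHL array 1. Of the alternatives that moved the log2 ratio at all, 11 for miR-21, 11 for miR-26a and 12 for miR-101, the direction turned in 1, 2 and 3. For miR-101 it turned with blanks at the lowest signal (-0.64), with array weights (-0.027) and without EHL array 1; the cause was not tested. Leaving out each array in turn gave log2 ratios of -1.84 to 0.11 for miR-21, -0.13 to 0.050 for miR-26a and -1.17 to 1.28 for miR-101, and breed differences of -0.19 to 1.74 for miR-26a against miR-21 and -1.17 to 1.19 for miR-101 against miR-26a. The counts called then ran from 0 to 13 higher and 0 to 6 lower. Array weights gave 4 higher and 3 lower, and quantile normalization and the LRS rows gave 1 lower each.

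The SAM count depended on s0, which was varied after the count of 1 higher and 0 lower had been seen. With s0 at the 0% quantile, and with the symmetric cut first used, it was 1 higher; at the 5, 10, 20, 30 and 50% quantiles it was 8 higher, and at the 70, 90 and 100% quantiles 4 higher, with 0 lower throughout. The q-values of the 3 members were between 53.1% and 100% in all of these.

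Between arrays of the same replicate number, deviations from the breed means correlated at -0.50, -0.01 and -0.66 over 96 miRNAs. Arrays of unlike number are not set beside these values, so whether the numbers pair the arrays cannot be told. With replicate number as a block, limma called 0 higher and 0 lower, with 8 at an unadjusted p under 0.05, and left the 3 log2 ratios at -0.84, -0.05 and 0.06. The lowest listed signals were 10 to 16; miR-21 on LW array 1 and EHL array 3 and miR-101 on EHL array 3 came closest to them, at 37, 22 and 29, and a blank gives no level.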

Other observations

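The miRNAs miR-192 and miR-215 belong to one family and are both known from liver and gut. Their signals behaved unlike each other on these arrays. The signal of miR-192 was 4106, 4679 and 3985 in LW and 5592, 3640 and 4832 in EHL, whereas that of miR-215 was 123, 366 and 480 in LW and 317, 104 and 37 in EHL. The first was the closest in profile to miR-26a and the other the closest to miR-21. This pair was picked after the values had been seen, and the difference was not tested.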
